A study of Mus musculus with 35 samples.

Results

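The circadian clock genes examined here were 10 transcripts of the core oscillator and its immediate output: the activators *Arntl* (also called *Bmal1*), *Clock* and *Npas2*, the repressors *Per1*, *Per2*, *Per3*, *Cry1* and *Cry2*, the nuclear receptor *Nr1d1* (also called *Rev-erbα*), and the output factor *Dbp*. They were chosen by name from the striatal RNAseq table, and all 10 were among its 22099 genes and passed the filter on low counts. In this feedback loop ARNTL pairs with CLOCK, or with its paralog NPAS2, and activates genes with E-boxes in their promoters, among them those of the PER and CRY proteins, *Nr1d1* and *Dbp*. PER and CRY proteins return to block the activators, NR1D1 represses *Arntl*, and DBP passes the rhythm to other genes through D-boxes. In a mouse whose clock runs, *Arntl* RNA therefore peaks when *Dbp* and *Nr1d1* RNA are low, and *Per1* also responds within minutes to hours to neuronal activity and to glucocorticoids.

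Striatal RNA of 35 female mice, aged 299 to 304 days, had been sequenced with 1 library per mouse. Of the congenic C57BL/6J *Htt+/+* mice, 6 were given saline, 5 a control ASO and 6 the *Htt* ASO. *HttQ111/+* mice carry, in every cell, a knock-in huntingtin allele with an expanded CAG repeat, and 6 of them were given each of the same treatments. ASOs are antisense oligonucleotides, and both were injected weekly into the peritoneum (50 mg/kg) from 2 to 10 months of age, as was the saline (4 µL/g). The right hemistriatum was used in all mice but 1, an *Htt+/+* mouse given *Htt* ASO whose sample is labelled left. Lights came on at midnight and went off at noon, and the clock time at which each mouse was sacrificed is not given in the sources used here, so a difference in sampling time between mice cannot be told apart from other differences between them.

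Values are given in CPM, which are expected counts relative to the library's total, with totals scaled by TMM. Total counts ran from 32200158 to 38641924 per mouse, so that even the lowest clock gene, *Arntl*, rested on a mean of 38.9 CPM. The tissue carried its labelled markers, with the sum of 9 striatal neuron genes between 5020 and 8777 CPM over all mice. Because the samples are whole tissue, fewer cells of a type and less RNA per cell cannot be told apart.

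Levels of different genes can be compared only per length of transcript. Divided by the longest annotated coding transcript, *Dbp* was the highest in *Htt+/+* mice at 57.9 CPM per kb, followed by *Cry2* at 43.1, *Per1* at 34.3 and *Nr1d1* at 31.1 CPM per kb. *Per2* reached 22.3 CPM per kb, and *Cry1* (15.2), *Per3* (14.4), *Npas2* (14.3) and *Arntl* (13.8 CPM per kb) lay close together. *Clock* was the lowest, at 9.49 CPM per kb. In *HttQ111/+* mice *Dbp*, at 42.4 CPM per kb, lay just under *Cry2*, at 43.2 CPM per kb.

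The first question was how these genes differed by genotype. Of the 10 clock genes, 6 were lower in *HttQ111/+* than in *Htt+/+* striatum when averaged over treatments, and 0 were higher (limma after voom, adjusted p under 0.05). Genotype differences were common in this tissue: 39.8% of the 17639 genes tested passed the same test, 21.8% higher and 18% lower. The median log2 difference of the 10 genes was −0.17, and that of all genes 0.0037. The genes that passed were *Npas2*, *Per3*, *Per1*, *Dbp*, *Per2* and *Arntl*, with *Dbp* and *Npas2* the most reduced. *Clock*, *Cry1*, *Nr1d1* and *Cry2* did not pass. The ranges of the genotypes overlapped for each of the 10 genes, and 2.21% of all genes had ranges that did not overlap.

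**Figure D1:**
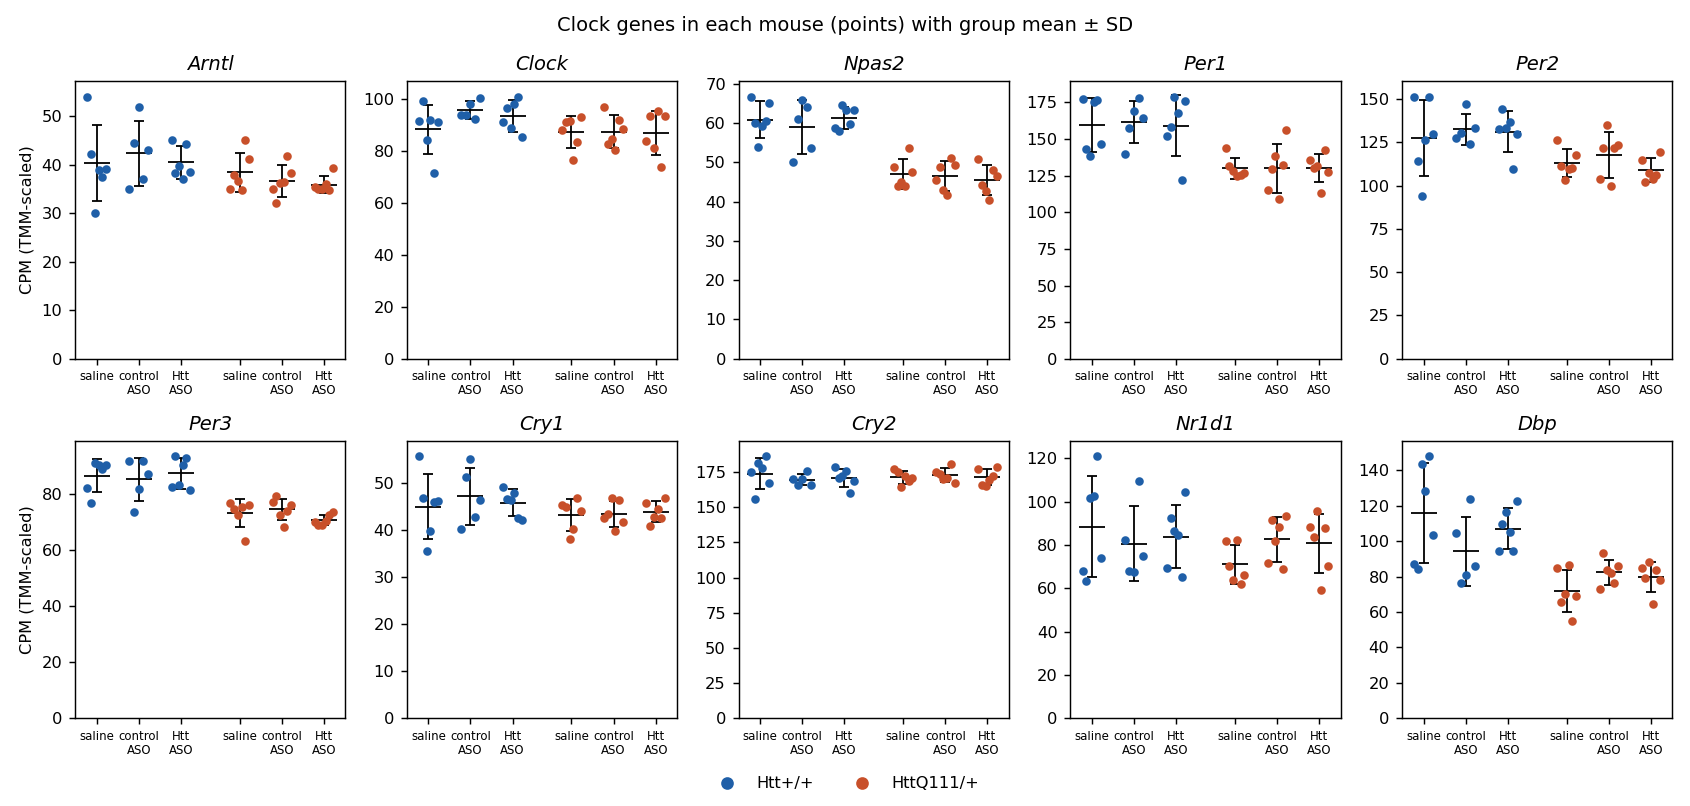
CPM of the 10 clock genes in each mouse (points), by genotype (colour) and treatment (position), with the group mean and SD in black; every vertical axis starts at 0. The group means of all genes but *Cry2* and *Nr1d1* lie lower in the *HttQ111/+* groups under each treatment. *Cry2* stays between 156 and 186 CPM in all 35 mice.

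Among the activators, the shift was largest for *Npas2*, which encodes the partner of ARNTL prominent in the forebrain. In *Htt+/+* mice given saline *Npas2* had a median of 60.2 CPM (53.8 to 66.7), and in those given *Htt* ASO 61.5 CPM (57.9 to 64.7), while the 5 control ASO mice were at 50.1, 61.1, 66.0, 64.1 and 53.7 CPM. The *HttQ111/+* medians were 46.2 CPM with saline (43.9 to 53.8), 47.2 CPM with control ASO (41.6 to 51.1) and 45.3 CPM with *Htt* ASO (40.5 to 50.9). The genotypes met only at their edges: 15 of 18 *HttQ111/+* mice lay below every *Htt+/+* mouse. On the log2 scale *Npas2* differed by −0.38 (95% confidence interval −0.46 to −0.30, standard error 0.038), with an adjusted p of 6.78e-10. The level fell by 23.2%, and the difference passed under each of the 3 treatments.

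*Clock* and *Arntl*, the other activators, moved less. *Clock* was 92.5 ± 7.22 CPM (SD, n = 17) in *Htt+/+* and 87.4 ± 6.72 (SD, n = 18) in *HttQ111/+* mice, a log2 difference of −0.084 (standard error 0.038) that did not pass (adjusted p = 0.0768). *Arntl* was 41.0 ± 5.90 CPM (SD, n = 17) in *Htt+/+* mice, from 30.0 to 54.0 CPM, and 37.0 ± 3.13 (SD, n = 18) in *HttQ111/+* mice, whose range lay wholly inside that of the *Htt+/+* mice. Still, 14 of 18 *HttQ111/+* mice were below the *Htt+/+* median. Its log2 difference of −0.14 (standard error 0.055, adjusted p = 0.0411) was near the threshold. The call for *Arntl* was lost in 19 of the 35 fits that left out 1 mouse, with adjusted p up to 0.0887, and with lane in the model (adjusted p = 0.174).

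All 3 *Per* genes, which encode the repressors that act together with CRY proteins, were lower in *HttQ111/+* mice. *Per1* ran from 122 to 179 CPM in *Htt+/+* mice (median 164) and from 109 to 156 CPM in *HttQ111/+* mice (median 130), with a log2 difference of −0.30 (standard error 0.049, adjusted p = 8.77e-06). All 18 *HttQ111/+* mice were below the *Htt+/+* median of *Per1*, although the ranges overlapped. *Per3* was 86.3 ± 5.98 CPM (SD, n = 17) against 72.6 ± 3.91 (SD, n = 18), a log2 difference of −0.25 (standard error 0.031, adjusted p = 5.73e-08), and 10 *HttQ111/+* mice lay below every *Htt+/+* mouse. *Per2* showed a smaller difference, from 130 ± 14.7 CPM (SD, n = 17) to 113 ± 9.83 (SD, n = 18), which on the log2 scale was −0.20 (standard error 0.049, adjusted p = 0.00137). For *Per2*, 17 of 18 *HttQ111/+* mice were below the *Htt+/+* median.

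The *Cry* genes, whose proteins carry the repression, gave no genotype call. *Cry1* was 45.9 ± 5.24 CPM (SD, n = 17) in *Htt+/+* and 43.6 ± 2.65 (SD, n = 18) in *HttQ111/+* mice (log2 difference −0.072, 95% confidence interval −0.16 to 0.019, adjusted p = 0.208). *Cry2* was 172 ± 7.64 CPM (SD, n = 17) and 172 ± 4.79 (SD, n = 18), and its interval of −0.034 to 0.044 was the narrowest of the 10 genes (adjusted p = 0.867). Annotated exons of *Cry2*, *Arntl*, *Nr1d1* and *Dbp* overlap exons of another gene on the opposite strand, by 295, 33, 263 and 539 bases respectively. The partner of *Dbp* is *Sphk2* and that of *Nr1d1* is *Thra*. Whether the counting used strand is not stated, so their values are uncertain to that degree.

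*Dbp* and *Nr1d1*, direct targets of the activators, parted from each other. In *Htt+/+* mice given saline *Dbp* had a median of 116 CPM (84.4 to 148), and in those given *Htt* ASO 107 CPM (94.3 to 123), while the 5 control ASO mice were at 104, 76.6, 80.9, 124 and 86.2 CPM. The *HttQ111/+* medians were 69.5 CPM with saline (54.8 to 86.4), 82.7 CPM with control ASO (73.0 to 93.4) and 81.3 CPM with *Htt* ASO (64.5 to 88.5). All 18 *HttQ111/+* mice were below the *Htt+/+* median of *Dbp* and 7 were below every *Htt+/+* mouse. On the log2 scale *Dbp* differed by −0.42 (95% confidence interval −0.58 to −0.27, standard error 0.075), with an adjusted p of 2.19e-05. *Nr1d1* ran from 63.2 to 121 CPM in *Htt+/+* mice (median 82.5) and from 59.1 to 95.6 in *HttQ111/+* mice (median 81.7), and 11 of 18 *HttQ111/+* mice were below the *Htt+/+* median. Its log2 difference of −0.096 had a wide interval of −0.27 to 0.076 (adjusted p = 0.394), so a reduction of moderate size would not have been detected.

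The genotype difference was also read within each treatment. In saline mice 4 clock genes passed, all lower (*Dbp*, *Npas2*, *Per1* and *Per3*), where 17.4% of all genes passed and 8.78% were lower. In control ASO mice 3 passed, without *Dbp*, and all were lower (18.5% of all genes passed, 8.46% lower). In *Htt* ASO mice 5 passed, with *Per2* added, and all were lower (21.2% of all genes passed, 10.2% lower). *Npas2*, *Per1* and *Per3* passed under all 3 treatments, as did 9.04% of all genes. These calls were less stable for *Per1* than for *Npas2*. Over 18 alternatives *Npas2* kept its call within each treatment in 17, while *Per1* kept it in 13 among saline, 16 among control ASO and 15 among *Htt* ASO mice. *Per3* kept its call in 16 among saline, 16 among control ASO and 17 among *Htt* ASO mice. *Per2* kept its call among *Htt* ASO mice in 12. Without the mice of lane 7, *Npas2* alone passed in control ASO mice, with *Per1* at an adjusted p of 0.0857 and *Per3* at 0.104. With glucocorticoid-responsive genes as a covariate, *Per1* (adjusted p = 0.0691) and *Per2* (adjusted p = 0.0894) no longer passed in *Htt* ASO mice. *Dbp* varied most, with a log2 difference of −0.67 on saline and −0.43 on *Htt* ASO, and −0.18 on control ASO, where it did not pass (adjusted p = 0.384). These differences between treatments were not themselves called: the interaction of genotype with treatment passed for 0 clock genes and 0 of all genes (limma's F test), and *Dbp*, with an unadjusted p of 0.0416 and an adjusted p of 0.878, was the only clock gene among the 948 genes (5.37%) at an unadjusted p under 0.05.

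The second question was whether treatment changed these genes. In the comparison of *Htt* ASO with control ASO, 0 clock genes passed by limma after voom and 0 reached an unadjusted p under 0.05, while 0.935% of all genes passed and 6.46% had such an unadjusted p. The log2 differences of the 10 genes ran from −0.062 (*Per2*) to 0.075 (*Dbp*), and their 95% confidence intervals all lay within −0.20 to 0.26. *Htt* ASO against saline likewise gave 0 clock genes at either threshold (1.47% of all genes passed, and 9.37% had an unadjusted p under 0.05), with log2 differences from −0.033 to 0.062. Control ASO against saline gave 0 clock genes at either threshold, where 0 genes in all passed and 7.69% had an unadjusted p under 0.05, with log2 differences from −0.037 to 0.063 for the clock genes. Within a genotype, *Htt* ASO against control ASO gave 0 clock genes in *Htt+/+* mice (0.295% of all genes passed) and 0 in *HttQ111/+* mice (0.357%), and at an unadjusted p under 0.05 also 0 in each (5.19% and 6.43% of all genes). The targeted transcript itself, *Htt*, differed by −0.077 on the log2 scale between *Htt* ASO and control ASO in this tissue (adjusted p = 0.967).

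The third question was how the genotype shift compared with the spread between mice of the same group. The sum of squares of each gene's log2 CPM was split into genotype, treatment, their interaction and the remainder between mice of a group. Genotype took 74.9% for *Npas2*, 66.0% for *Per3*, 52.8% for *Per1* and 45.6% for *Dbp*, against a median of 9.51% over all genes and of 16.9% over the 7848 genes that, like all 10 clock genes, averaged 20 CPM or more. It took 31.9% for *Per2*, and 15.7% for *Arntl* and 11.5% for *Clock*, which were below the second of these medians. For *Cry1*, *Nr1d1* and *Cry2* genotype took 6.99%, 3.70% and 0.145%, and mice of a group differing from each other took 90.5%, 87.8% and 95.6%.

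**Figure D2:**
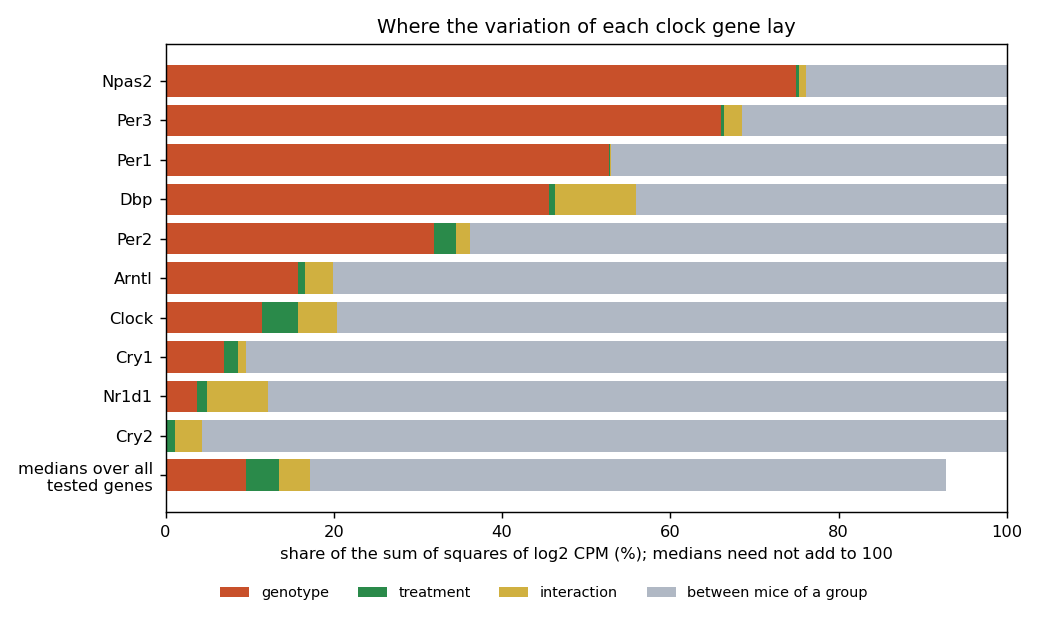
Share of the sum of squares of log2 CPM (horizontal axis, percent) taken by genotype, treatment, their interaction and differences between mice of a group, for each clock gene, with the medians over all tested genes at the bottom. Genotype takes more than any other share for *Npas2*, *Per3*, *Per1* and, by a small margin, *Dbp*, and most of *Nr1d1*, *Cry1* and *Cry2* lies between mice of a group.

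The size of the spread itself also set the genes apart. Within groups the SD of log2 CPM was 0.27 for *Nr1d1* and 0.23 for *Dbp*, compared with a median of 0.074 over the same 7848 genes, and 98.7% and 98.3% of those genes had a smaller SD. *Arntl* (0.17), *Per1* and *Per2* (0.15 each) and *Cry1* (0.14) also exceeded that median, and 96.1%, 94.5%, 94.5% and 92.5% of those genes varied less. So did *Npas2* and *Clock* (0.12 each) and *Per3* (0.094), where 87.2%, 86.9% and 72.5% varied less. *Cry2* varied least of the 10 and fell below the median, with an SD of 0.056, and 20.8% of those genes varied less. *Nr1d1* in saline *Htt+/+* mice spanned 63.2 to 121 CPM, a range of 1.91-fold among mice of 1 group.

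The spread was compared between genotypes by testing each mouse's absolute deviation from its group mean. 0 clock genes and 0 genes of the whole table passed after adjustment by limma. On simulated data, this test recovered 124 of 200 genes whose *HttQ111/+* spread was made 3 times as large, and it called 25 unchanged genes. That number of unchanged genes is more than an adjusted threshold of 0.05 aims for. Smaller differences in spread could thus be missed. A smaller *HttQ111/+* spread was not simulated, so the recovery in that direction is not known. At an unadjusted p under 0.05 there were 4 clock genes, *Dbp*, *Arntl*, *Cry1* and *Per3*, each less spread in *HttQ111/+* mice, beside 8.33% of all genes. The unadjusted count is a description and no call. The within-genotype SD of log2 CPM was 0.29 and 0.20 for *Dbp* and 0.20 and 0.12 for *Arntl*, in *Htt+/+* and *HttQ111/+* mice.

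Phase-like spread would appear as clock genes that move together or apart among mice of 1 group. After subtraction of each group's mean, 18 of the 45 pairs of clock genes were correlated over the 35 mice (two-sided permutation test with 100000 shuffles within groups, adjusted over 45 pairs), 11 positively and 7 negatively, and 14 passed by Spearman's rho. *Dbp* and *Nr1d1* rose and fell together (r = 0.92, rho = 0.93, permutation p = 1e-05 for each, the smallest that 100000 shuffles can give, adjusted p = 0.000225 for r). *Arntl* ran against both, with r = −0.74 and rho = −0.80 for *Dbp* (permutation p = 1e-05 for each, adjusted p = 0.000225 for r) and r = −0.64 and rho = −0.73 for *Nr1d1* (permutation p = 0.00017 and 1e-05, adjusted p = 0.00116 and 0.00015). *Clock* also ran against *Nr1d1* (r = −0.66, rho = −0.64, permutation p = 6e-05 and 0.00016, adjusted p = 0.000675 and 0.00144).

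Some repressors also moved together, and some moved with activators. Others did not pass, among them *Per1* with *Per3* (r = −0.0072), *Per2* with *Per3* (r = 0.021) and *Cry1* with *Cry2* (r = 0.064). *Cry1* moved with *Arntl* (r = 0.76, rho = 0.61, permutation p = 0.00018 and 0.00116, adjusted p = 0.00116 and 0.00652). *Cry1* also moved with *Per2* (r = 0.71, rho = 0.61, permutation p = 6e-05 and 0.00032, adjusted p = 0.000675 and 0.00206), and *Per2* with *Per1* (r = 0.67, rho = 0.65, permutation p = 0.0001 and 0.00021, adjusted p = 0.0009 and 0.00157). *Npas2* moved with *Per1* (r = 0.52, rho = 0.49, permutation p = 0.00146 and 0.00421, adjusted p = 0.0073 and 0.0158) and with *Cry1* (r = 0.54, rho = 0.47, permutation p = 0.00337 and 0.0133, adjusted p = 0.0138 and 0.0448). Its r was −0.15 with *Dbp* and −0.058 with *Nr1d1*, neither past the permutation threshold (adjusted p = 0.583 and 0.863). Without the 2 mice farthest from the median of the first gene, r was 0.90 for *Nr1d1* with *Dbp*, −0.69 for *Arntl* with *Dbp*, −0.63 for *Arntl* with *Nr1d1*, −0.61 for *Clock* with *Nr1d1*, 0.60 for *Arntl* with *Cry1*, 0.56 for *Per2* with *Cry1* and 0.63 for *Per1* with *Per2*. All 18 pairs had the same sign of r within each genotype. With lane means removed as well, 19 pairs passed.

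**Figure D3:**
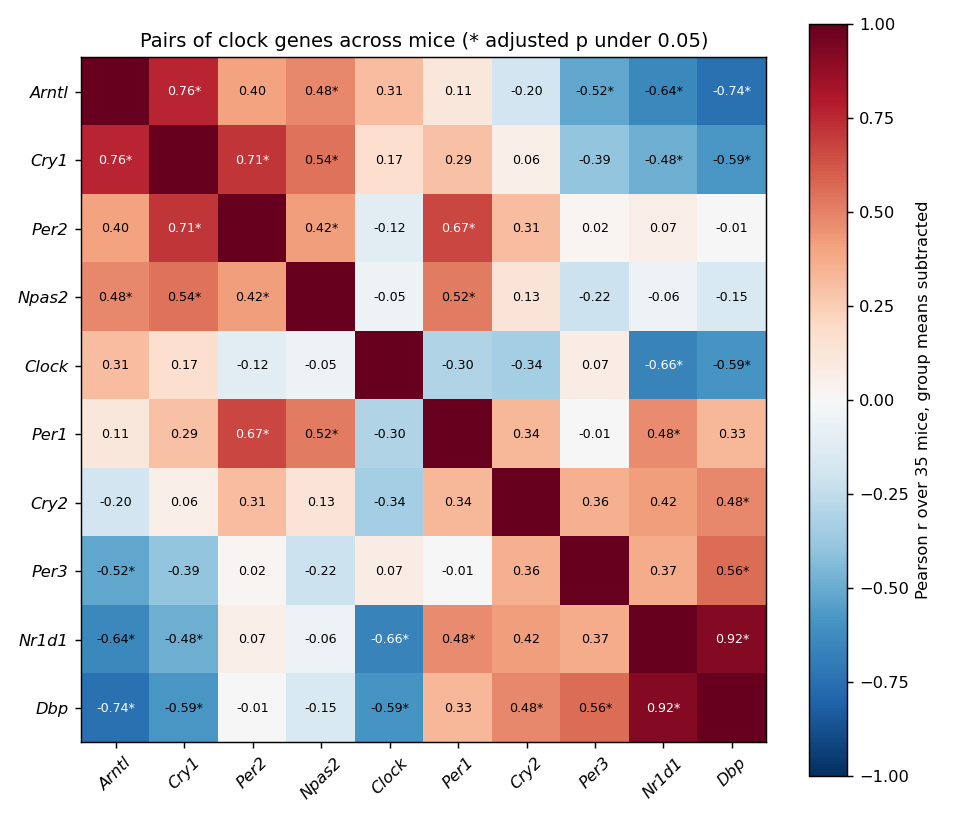
Pearson r for each of the 45 pairs of clock genes over 35 mice, after subtraction of group means (colour and number; an asterisk marks an adjusted permutation p under 0.05). *Arntl* and *Cry1* at the upper left run together and against *Dbp* and *Nr1d1* at the lower right, whose r with each other is 0.92.

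Within the *Htt+/+* mice alone 11 pairs passed, and within the *HttQ111/+* mice alone 1 pair passed, *Nr1d1* with *Dbp*; the difference between the genotypes was not tested. In the *Htt+/+* and *HttQ111/+* mice r was 0.95 and 0.85 for *Nr1d1* with *Dbp*, −0.78 and −0.66 for *Arntl* with *Dbp*, and 0.85 and 0.48 for *Arntl* with *Cry1*. How common correlations of at least 0.6 in size were depended on the gene. Among the 15089 genes that averaged 1 CPM or more, 10.8% had one with *Clock*, 3.26% with *Dbp*, 3.21% with *Nr1d1*, 2.50% with *Cry1* and 2.21% with *Arntl*. The shares were smaller for *Cry2* (1.72%), *Npas2* (1.35%), *Per2* (0.828%), *Per1* (0.577%) and *Per3* (0.272%). The r of −0.66 between *Clock* and *Nr1d1* is thus of a size that many genes had with *Clock*.

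The promoter letters of the clock genes are shown where they held a clock motif that such genes are known to use. RefSeq windows of 250 bases before to 50 after a start site, on GRCm38.p6, were found for 9 of the 10 genes, in 13 windows. *Per2* had no window. On both strands an E-box (CACGTG) was searched, a D-box (TTATGTAA or TTATGCAA), a RORE (TAGGTCA or TGGGTCA), which binds NR1D1 and its activating relatives, and a CRE (TGACGTCA), used by activity-driven factors. Capitals mark the motifs in the 4 windows that held any, each written 5′ to 3′ on the strand of its gene; none of the 4 motifs overlaps another here.
*Per1*, chr11:69098699-69098998, plus strand, an E-box 166 and a D-box 24 bases before the start: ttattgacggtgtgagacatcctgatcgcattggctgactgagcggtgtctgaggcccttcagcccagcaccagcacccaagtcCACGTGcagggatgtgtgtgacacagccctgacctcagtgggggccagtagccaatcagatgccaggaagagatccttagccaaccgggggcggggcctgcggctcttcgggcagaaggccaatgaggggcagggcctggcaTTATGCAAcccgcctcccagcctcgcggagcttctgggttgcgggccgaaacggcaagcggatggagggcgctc
*Per3*, chr4:151044616-151044915, minus strand, D-boxes 205 and 158 bases before the start: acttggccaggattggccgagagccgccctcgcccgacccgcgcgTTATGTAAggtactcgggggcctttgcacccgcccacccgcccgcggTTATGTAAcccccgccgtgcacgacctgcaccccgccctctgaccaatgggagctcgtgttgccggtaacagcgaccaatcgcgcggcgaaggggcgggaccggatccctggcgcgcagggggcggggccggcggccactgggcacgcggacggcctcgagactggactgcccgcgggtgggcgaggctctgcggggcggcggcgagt
*Cry1*, chr10:85185005-85185304, minus strand, an E-box 60 bases before the start: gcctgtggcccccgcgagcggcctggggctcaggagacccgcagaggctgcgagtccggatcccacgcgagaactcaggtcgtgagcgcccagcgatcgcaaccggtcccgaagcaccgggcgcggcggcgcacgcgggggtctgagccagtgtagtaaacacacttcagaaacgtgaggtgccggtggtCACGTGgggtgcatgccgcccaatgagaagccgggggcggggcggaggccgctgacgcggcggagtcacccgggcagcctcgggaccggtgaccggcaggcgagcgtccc
*Arntl*, chr7:113207261-113207560, plus strand, a RORE from base 31 after the start: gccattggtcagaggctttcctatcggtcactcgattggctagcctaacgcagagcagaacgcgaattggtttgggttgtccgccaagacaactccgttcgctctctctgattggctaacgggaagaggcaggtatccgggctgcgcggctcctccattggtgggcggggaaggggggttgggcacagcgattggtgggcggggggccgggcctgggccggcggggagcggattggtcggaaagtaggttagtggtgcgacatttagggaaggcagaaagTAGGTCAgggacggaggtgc
The E-box was thus in 2 of the 13 windows, the D-box in 2, the RORE in 1 and the CRE in 0. The windows of *Dbp* and *Nr1d1*, the most strongly correlated pair, held none of the 4 motifs. Of all 32851 windows of this length, 7.15% held the E-box, 1.66% the D-box, 6.45% the RORE and 1.79% the CRE. A match is a run of letters and not a measured site.

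*Dbp* and *Nr1d1* had the strongest correlation of the 45 pairs and unlike genotype differences. Their ratio within a mouse cancels what moves both by the same factor, and it ran from 1.13 to 1.45 in the 17 *Htt+/+* mice (median 1.25) and from 0.886 to 1.11 in the 18 *HttQ111/+* mice (median 1.02). The ranges did not overlap, although those of *Dbp* alone and of *Nr1d1* alone did. The mean log2 ratio was lower by 0.34 in *HttQ111/+* mice, with a within-group SD of 0.11. This was 1 of 5 ratios computed after the fitted values had been seen, so it is given without a test. The other 4 ratios (*Per3* to *Nr1d1*, *Per1* to *Per2*, *Dbp* to *Arntl* and *Npas2* to *Clock*) overlapped between genotypes. As background, the ratio to *Nr1d1* did not overlap between genotypes for 0.18% of 17209 genes, and the ratio of *Dbp* to another gene for 1.38%. Among the same genes, no other ratio to *Nr1d1* or to *Dbp* had a within-group SD as small as that of this pair.

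**Figure D4:**
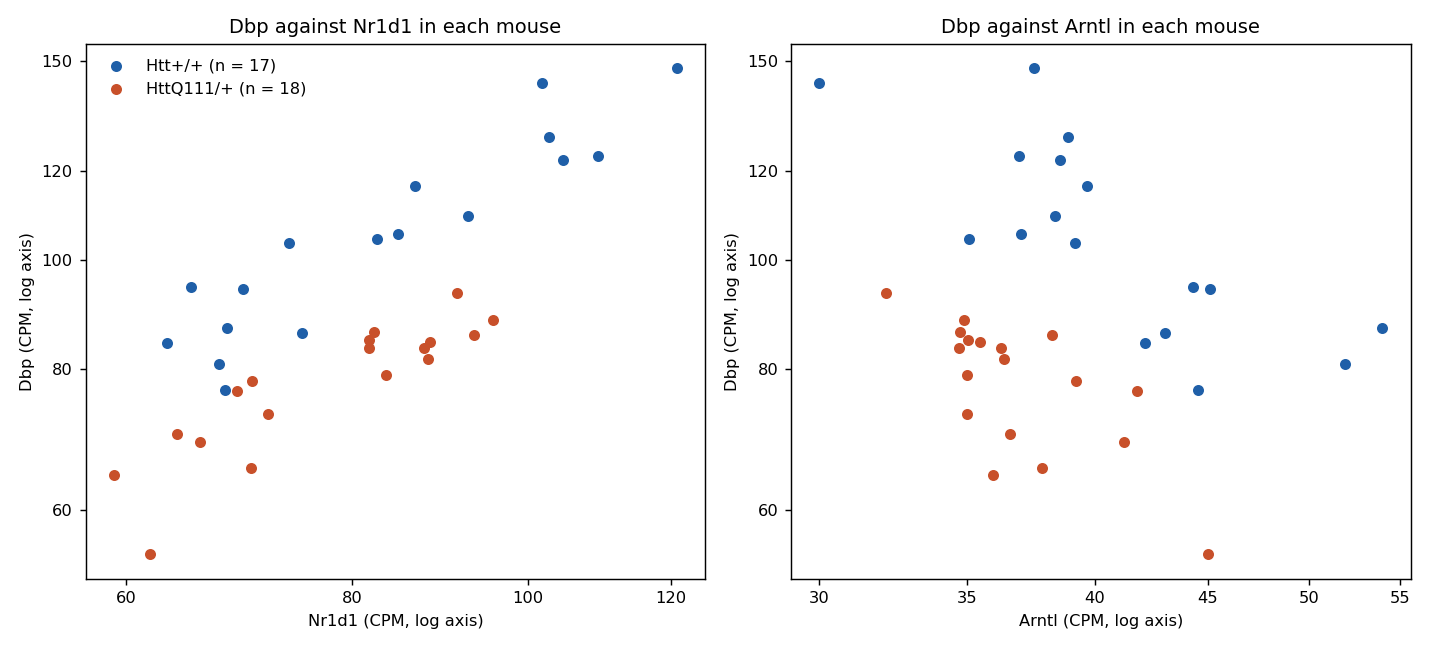
CPM of *Dbp* against *Nr1d1* (left) and against *Arntl* (right) in each mouse, both axes logarithmic, coloured by genotype. On the left the genotypes form 2 parallel bands, with every *HttQ111/+* mouse at a lower ratio of *Dbp* to *Nr1d1* (0.886 to 1.11) than every *Htt+/+* mouse (1.13 to 1.45); on the right *Dbp* falls as *Arntl* rises.

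A clock index was built from 5 genes outside the 10, *Nr1d2*, *Tef*, *Ciart*, *Usp2* and *Bhlhe41*, as the mean of their z scores of log2 CPM. Within groups its slope passed for 4 clock genes, up for *Dbp*, *Nr1d1* and *Per3* and down for *Arntl*, beside 0.646% of all genes. By the size of its p, *Dbp* ranked 2 and *Nr1d1* 6 among 17639 genes. The ranks and the share of all genes include the 5 genes that make up the index. Like the other gene lists, these 5 were chosen with earlier results of these data known, so the ranks are a description. The index is not free of genotype, since *Ciart*, *Tef* and *Usp2* were themselves lower in *HttQ111/+* mice. With it as a covariate, the log2 genotype difference was −0.15 for *Dbp* (adjusted p = 0.0093), −0.40 for *Npas2* (adjusted p = 6.13e-08), −0.17 for *Per3* (adjusted p = 5.71e-05), −0.22 for *Per1* (adjusted p = 0.00351), −0.17 for *Per2* (adjusted p = 0.0269) and −0.29 for *Arntl* (adjusted p = 5.75e-05), by limma after voom. *Clock* (−0.14, adjusted p = 0.0116) and *Cry1* (−0.16, adjusted p = 0.0122) then passed as well. The share of all genes that passed in this fit is not given here. Over the 19 alternatives at most 8089 genes passed, against 7024 in the main fit (39.8%). The added calls are therefore not read as particular to clock genes.

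The adjusted difference of *Nr1d1* depended on which gene stood for the shared spread. With the clock index it was higher in *HttQ111/+* mice, by 0.20 on the log2 scale (standard error 0.058, adjusted p = 0.00744), and with *Arntl* as the covariate it was −0.24 (standard error 0.072, adjusted p = 0.00984). *Dbp* was lower with each of these, at −0.57 with *Arntl* (adjusted p = 7.29e-10) and −0.35 with *Nr1d1* (adjusted p = 5.45e-11) as the covariate. *Npas2* moved little, from −0.40 to −0.33 over the 3 covariates.

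**Figure D5:**
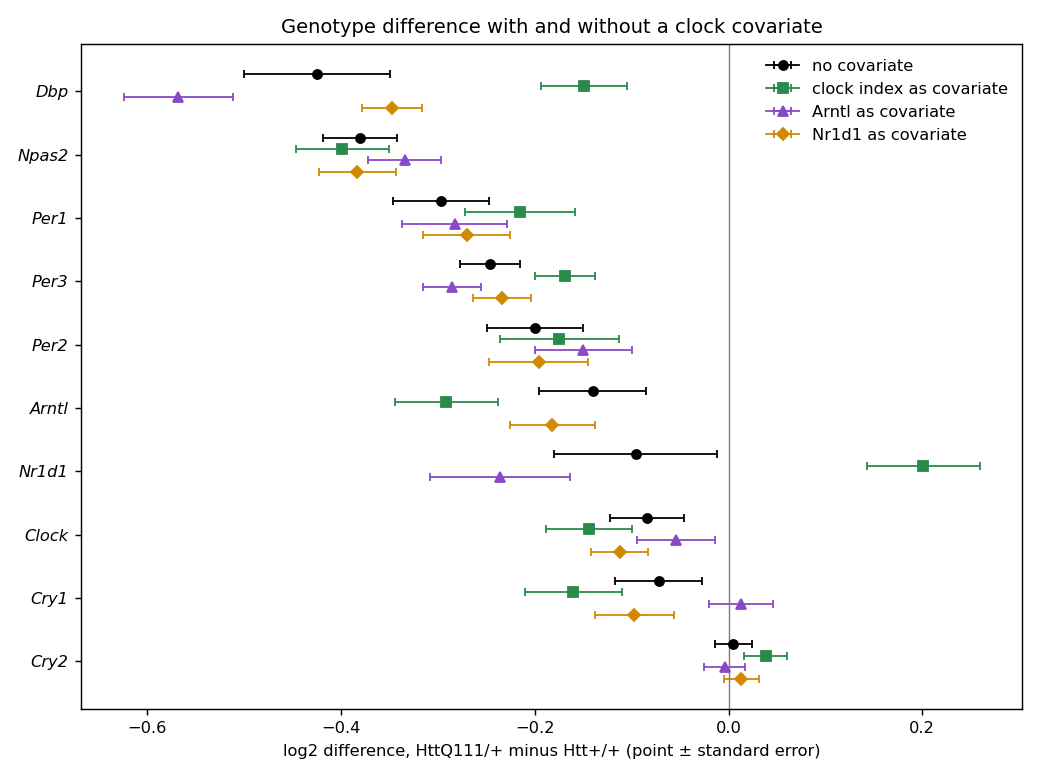
Log2 difference between *HttQ111/+* and *Htt+/+* mice for each clock gene (point, with 1 standard error to each side), fitted without a covariate and with the clock index, *Arntl* or *Nr1d1* as a covariate; a gene is left out of the fit that uses it. *Npas2* stays between −0.40 and −0.33, *Dbp* ranges from −0.57 to −0.15, and *Nr1d1* lies on either side of 0.

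Of 18 other clock genes tested, 12 passed for genotype, 8 lower and 4 higher (39.8% of all genes passed). Those lower included the other PAR bZIP factors related to *Dbp*, *Hlf* (log2 difference −0.26, adjusted p = 2.45e-09) and *Tef* (−0.19, adjusted p = 4.54e-08), and the repressor *Ciart* (listed as *Gm129*), which at −0.54 (adjusted p = 0.000315) was the most reduced of the 18. *Rorb* (−0.31), *Fbxl21* (−0.25), *Bhlhe40* (−0.17) and *Usp2* (−0.11) were lower as well. The 4 higher genes were *Arntl2*, a paralog of *Arntl* (0.25, adjusted p = 0.0207), *Nfil3*, a repressor that competes with DBP at D-boxes (0.22, adjusted p = 0.000204), and the PER kinases *Csnk1d* (0.11) and *Csnk1e* (0.047). *Nr1d2*, the paralog of *Nr1d1*, did not pass (−0.042, adjusted p = 0.301). Between *Htt* ASO and control ASO mice, 0 of the 18 passed and 1 had an unadjusted p under 0.05.

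Across the table, the genes most like *Dbp* over 35 mice, by r of group-subtracted log2 CPM among 15089 genes, were *Kcnip3* (0.93), *Camkk1* (0.93), *Nr1d1* (0.92), *Ciart* (0.90) and *Bhlhe41* (0.85), and the most opposite were *Hspa8* (−0.83), *Rbm45* (−0.81), *Lrrc58* (−0.81), *Tra2a* (−0.80) and *Tardbp* (−0.79). Those most like *Arntl* were *Pdp1* (0.85, listed as *Ppm2c*), the gene listed as *Hsp110* (0.83), *Hspa4* (0.82), *Noct* (0.82, listed as *Ccrn4l*) and *Hspa8* (0.79), and the most opposite were *Chia1* (−0.80, listed as *Chia*), *Tspan4* (−0.79), *Colgalt1* (−0.79, listed as *Glt25d1*), *Abcc8* (−0.75) and *Dbp* (−0.74). These correlations share libraries and are given as a description.

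Several other measures moved with genotype. The summed level of 12 immediate early genes, which follow neuronal activity, ran from 551 to 1186 CPM in *Htt+/+* mice (median 959) and from 480 to 898 in *HttQ111/+* mice (median 741), and 5 of the 12 were lower and 0 higher, where 18% of all genes were lower and 21.8% higher. Over mice of a group, 0 of the 12 reached an r of 0.6 with *Per1*, the nearest being *Egr1* at 0.59 and *Egr4* at 0.58, while 4 did with *Arntl*, 3 with *Cry1* and 1 with *Per2*. Of 10 glucocorticoid-responsive genes, 2 were lower when averaged over treatments, close to the share of all genes, and none reached an r of 0.6 in size with any clock gene. By treatment, 1 was higher and 0 lower in saline mice (median log2 genotype difference 0.074). In control ASO mice 1 was lower (median −0.024), and in *Htt* ASO mice 3 were lower (median −0.19), where 8.46% and 10.2% of all genes were lower. These genes also moved with treatment: 3 of the 10 were lower with *Htt* ASO than with saline and 8 had an unadjusted p under 0.05 (1.47% and 9.37% of all genes), and 1 was lower than with control ASO. With immediate early genes as a covariate *Per1* stayed lower at −0.25 (adjusted p = 0.000287) and *Dbp* at −0.51 (adjusted p = 2.28e-06), and *Arntl* was at −0.044 (adjusted p = 0.511).

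The 9 striatal neuron markers differed more: 8 were lower in *HttQ111/+* mice, 1 was higher, and their sum ran from 7496 to 8777 CPM in *Htt+/+* and from 5020 to 6007 CPM in *HttQ111/+* mice, without overlap. With these markers as a covariate, 0 clock genes passed and 890 of all genes did, and the standard error of the *Npas2* difference grew from 0.038 to 0.093. *Npas2* then stood at 0.044 (adjusted p = 0.831), *Per3* at −0.28 (adjusted p = 0.0916) and *Dbp* at −0.28 (adjusted p = 0.534). Genotype and this marker level cannot be told apart in these mice. Markers of other cell types were detected in both genotypes. Some moved with genotype as well, where 18% of all genes were lower and 21.8% higher. Of 4 endothelial markers 3 were lower, with a median log2 difference of −0.18 and sums of 174 to 273 CPM in *Htt+/+* and 158 to 190 CPM in *HttQ111/+* mice. Of 4 astrocyte markers 2 were lower (sums of 677 to 762 and 631 to 722 CPM), of 4 microglial markers 2 (263 to 308 and 239 to 283 CPM) and of 4 oligodendrocyte markers 1 (7053 to 9332 and 6706 to 8206 CPM), and 0 of these 16 were higher. None of them was at 0 in all mice, and their part in the clock gene values was not tested. Of the 4 cortical and 4 choroid plexus markers 0 passed. Cortical markers summed to at most 67.6 CPM in *Htt+/+* and 69.6 CPM in *HttQ111/+* mice (medians 18.5 and 16.5), and choroid plexus markers to 42.1 to 1573 and 43.6 to 146 CPM. Of 2 blood markers tested, 0 passed when averaged over treatments. In control ASO mice alone, the 2 blood markers (median log2 difference −1.39) and 3 of 4 endothelial markers (−0.29) were lower, beside 8.46% of all genes. In saline mice 0 of either passed, and in *Htt* ASO mice 0 blood markers and 1 endothelial marker. Their part in the clock gene values was not tested.

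Within the 5 lanes that held both genotypes, *Npas2*, *Per1*, *Per2*, *Per3* and *Dbp* were lower in *HttQ111/+* mice in all 5, *Arntl*, *Clock*, *Cry1* and *Cry2* in 4, and *Nr1d1* in 2. The remaining lane held only *HttQ111/+* mice (n = 6). The difference within a lane ran from −0.51 to −0.27 for *Npas2*, from −0.38 to −0.19 for *Per3* and from −0.96 to −0.23 for *Dbp*. A term for lane passed for 0 clock genes (6.52% of all genes), and a term for age in days passed for 0 clock genes and 0 of all genes by limma; at an unadjusted p under 0.05 there was 1 clock gene for lane, *Cry2* (21.6% of all genes), and 0 for age (3.01% of all genes).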

How the data were processed

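Striatal RNA of 35 mice in 6 groups was sequenced as paired reads from TruSeq Stranded mRNA libraries. Per the submitters' processing notes and the methods, the authors aligned reads to the mouse transcriptome (MGSCv37, mm9) with Bowtie 0.12.9 and quantified genes with RSEM 1.1.18. What was deposited are the expected counts of RSEM for each gene in each mouse, without any scaling. RSEM splits reads that fit several genes, and 55.6% of the values were whole. The labels give 1 treatment as ASO1, which was read as the *Htt* ASO because no other treatment was left for it. Lane is the number after L in the sample titles, a reading taken from the labels alone. Where nothing ties mice to litters, p-values measure the spread between these mice.

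R 4.3.3 was used, with edgeR 4.0.16 and limma 3.58.1: filterByExpr (minimum count 10, minimum total 15) kept 17639 of 22099 genes, TMM scaled the libraries, and limma after voom fitted a mean per group (29 residual degrees of freedom). Adjusted p-values are Benjamini-Hochberg values over the 17639 genes, called under 0.05. Log2 CPM for spread and correlation used a prior count of 2. Permutations used Python 3.11.15 with 100000 shuffles within groups. DESeq2 1.42.0 and the quasi-likelihood test of edgeR, on rounded expected counts, were alternatives. Code was tested on simulated data. No 2 mice of a group differed by sampling noise alone.

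The members and all gene lists were chosen with earlier results of these data known. Named genes were the 10 members, other clock genes that passed for genotype or *Htt* ASO against control ASO, the 5 genes with the highest and the 5 with the lowest r with *Arntl* and with *Dbp*, and immediate early or glucocorticoid-responsive genes with an r of at least 0.6 in size with *Per1*; *Nr1d2*, *Bhlhe41*, *Egr1* and *Egr4* were named after their values were seen. One of the other clock genes that passed is counted but not reported here by name. Transcript lengths and exon overlaps came from GENCODE M21, and older symbols were matched through RefSeq.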

Additional observations from a re-analysis of the deposited data

Results flagged for a closer look

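Each clock gene was checked in each of the 6 groups for a mouse that stood apart from the others by Dixon's criterion, and 3 of 60 groups had such a mouse. Chance alone gives about 1 in 20 groups, so this number of mice is no more than chance would give. *Arntl* was 39.2 CPM in replicate 6 of the *HttQ111/+* mice on *Htt* ASO, where the next mouse was at 36.0 CPM. *Per1* was 144 CPM in replicate 1 of the *HttQ111/+* mice on saline, where the next was at 131 CPM. *Per3* was 63.2 CPM in replicate 5 of the *HttQ111/+* mice on saline, where the next was at 72.4 CPM. These were 3 different mice, and none was removed. Without each of them in turn, the log2 genotype difference was called or not called as before, except that *Arntl* lost its call without replicate 1 of the *HttQ111/+* mice on saline (adjusted p = 0.0605 by limma after voom).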

How the results depend on the processing

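Over 19 alternatives and 35 fits that left out 1 mouse each, the log2 genotype differences of *Npas2*, *Per1*, *Per2*, *Per3* and *Dbp* kept their direction and their call in every fit but the fit with striatal markers as a covariate. That covariate was chosen after the data were seen, as were the immediate early, glucocorticoid-responsive and *Nr1d1* covariates. With striatal markers, 0 clock genes and 890 genes in all passed (6 and 7024 otherwise), and 0 clock genes passed within saline, control ASO or *Htt* ASO mice; the differences there were 0.17 for *Arntl*, 0.044 for *Npas2*, 0.074 for *Per1*, 0.14 for *Per2*, 0.24 for *Cry1* and 0.13 for *Nr1d1*, all opposite in sign to the main values and with adjusted p from 0.285 to 0.831. The markers do not overlap between genotypes, so this fit cannot separate the 2. Without the mice of lane 7, 1 clock gene passed in control ASO mice, and with the glucocorticoid covariate 3 passed in *Htt* ASO mice.

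*Arntl* lost its call with library totals in place of TMM (adjusted p = 0.123), without a filter (0.0525), with lane (0.174), without lane 7 (0.153), and with the immediate early (0.511) and glucocorticoid (0.063) covariates; the cause was not tested. *Clock* gained a call with the clock index, sample quality weights, *Nr1d1* as a covariate or without the left hemistriatum mouse, and *Cry1* with the clock index. *Nr1d1* turned to 0.20 with the clock index, and *Cry1* to 0.013 with *Arntl* as a covariate. *Cry2*, at 0.0049, was 0.13 with striatal markers (adjusted p = 0.173) and −0.00033 with DESeq2, −0.013 with lane, −0.0041 with *Arntl*, −0.012 without lane 7, and −0.0099 and −0.0058 without replicate 2 of the *Htt+/+* saline mice or replicate 5 of the *Htt+/+* *Htt* ASO mice (−0.0099 to 0.0092 over all fits without 1 mouse). The genotype difference in spread of *Npas2*, near 0, was 0.0048 with deviations from the group median.

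Leaving out 1 mouse gave 5 to 7 clock genes for genotype, 4 to 5 within saline, 3 within control ASO and 4 to 5 within *Htt* ASO mice, 0 for each treatment comparison, and 6767 to 7089 genes in all. Library totals moved the median of all genes to 0.043 and the share of genotype calls that were higher from 54.7% to 72.1%. The pairs of clock genes past the threshold numbered 11 in *Htt+/+* and 1 in *HttQ111/+* mice alone, where fewer mice entered. No paired analysis was possible because replicate numbers are names in accession order; a fit that took shared letters in mouse names as a block (estimated correlation 0.091) changed no clock gene's call.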
